A study of Homo sapiens with 4 samples.

Results

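Azurophil granules, also called primary granules, are packed during the promyelocyte stage of myeloid differentiation with enzymes and antimicrobial proteins that phagocytes later use against microbes. The 10 genes described here are MPO, ELANE, PRTN3, AZU1, CTSG, RNASE2, RNASE3, BPI, LYZ and CTSC. They were chosen by name. Each symbol had 1 Ensembl identifier, so the genes are 10 of the 41084 identifiers in the tables. AZU1 and BPI encode antimicrobial proteins without enzyme activity, RNASE2 and RNASE3 are best known from eosinophil granules, and CTSC encodes the lysosomal protease that activates the granule serine proteases, so the name granule genes is used below for all 10.

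The cells were OCI-AML3, a human acute myeloid leukaemia cell line. RNA was measured in 2 libraries whose genotype label reads Plex CEBPB and in 2 whose label reads Plex Control. The meaning of Plex is not given in the sources used here. The protein made from CEBPB, C/EBPβ, regulates myeloid and inflammatory genes, and the series title places it in a feedback loop with IL-1β and TNFα in monocytic leukaemia cells that resist BCL2 and MDM2 inhibitors. Nothing states whether the libraries of a group came from separate cultures, so the p-values measure the spread between these libraries only, which may be technical. Everything below holds for 1 cell line.

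Granule genes are switched on as a group in promyelocytes, under C/EBPα, C/EBPε, MYB, RUNX1 and PU.1 among others, and most are shut off as neutrophils or monocytes mature. Lysozyme mRNA is still made at later stages of the neutrophil and monocyte lineages. The proteases are made as inactive precursors, are trimmed by cathepsin C and are held in the granule on the proteoglycan serglycin.

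Deposited counts summed to 21950575 and 18151225 in the CEBPB libraries and to 19882347 and 21598592 in the control libraries. CEBPB stood at 536 and 339 TPM in the CEBPB libraries, against 4.72 and 4.47 TPM in the controls. TPM is the share of a gene among all transcripts, corrected for gene length. The myeloid surface gene CD33 was at 46.9 and 53.0 TPM in the CEBPB libraries, against 47.4 and 46.5 TPM in the controls, and ANPEP (CD13) was at 0.792 TPM or less in all 4. ITGAM (CD11b) was at 4.54 and 5.23 TPM in the CEBPB libraries, against 1.53 and 0.972 TPM in the controls. Defining genes of other lineages were listed at 0 in every library, among them CD3E and CD2 of T cells, HBB of red cells, CPA3 of mast cells, JCHAIN of plasma cells and KRT18 of epithelia. The summed level of the 8 listed mast cell and basophil markers was 0.178 and 0.0715 TPM in the CEBPB libraries, against 0.155 and 0.848 TPM in the controls. For the 9 listed T and NK cell markers the sums were 12.3 and 17.8 TPM in the CEBPB libraries, against 23.4 and 25.7 TPM in the controls, most of it from NKG7, which fell (-1.23), as did TRAC (-3.15). GNLY of the same list rose, to 2.77 and 4.06 TPM in the CEBPB libraries, against 0.0781 and 0 TPM in the controls (adjusted p = 0.00295, edgeR). With 1 read over both controls, GNLY could reach the test only through the CEBPB libraries. TRAC, with 3 reads over the CEBPB libraries and 30 over the controls, reached it only through the controls. The 7 listed B and plasma cell markers summed to 2.99 and 2.52 TPM in the CEBPB libraries, against 8.09 and 7.16 TPM in the controls, most of it from CD79B, which fell (-1.90). Sums over the 10 erythroid and megakaryocyte markers were 3.30 and 2.84 TPM in the CEBPB libraries, against 3.803 and 3.771 TPM in the controls, and over the 10 stromal, endothelial and epithelial markers 36.6 and 37.5 TPM in the CEBPB libraries, against 87.5 and 78.5 TPM in the controls, nearly all from PECAM1, which leukocytes also express and which fell (-1.41). GP9, a platelet gene, was at 1.02 TPM or less and fell (-3.06). It had 3 reads over the CEBPB libraries and 26 over the controls, and reached the test only through the controls. The part of other cells in the results was not tested.

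The granule genes divided. LYZ, RNASE3 and RNASE2 rose in the CEBPB libraries, and AZU1, MPO, ELANE and CTSG fell. PRTN3, BPI and CTSC did not pass the threshold, which is a Benjamini-Hochberg adjusted p of 0.05 over all identifiers in edgeR's quasi-likelihood test. All 10 passed the filter on low counts, MPO only through its level in the controls. Thus 3 of 10 rose, where 23.7% of the 13698 tested identifiers rose, and 4 of 10 fell, where 24.7% fell. In TPM both CEBPB libraries lay above both controls for 5 of the 10 (48.7% of all tested) and below both for the other 5 (28.6% of all tested). Calls in either direction covered 70.0% of the 10 and 48.5% of all tested. With 10 genes chosen by name, nothing particular to them is read from these shares. The median log2 fold change of the 10 was -0.28, beside 0.00092 over all tested. The alternatives named below called other shares of all identifiers. Those that rose were 32.3% with library totals, 32.8% and 32.6% on log2 TPM with 1 and 0.1 added, 30.5% with recovered reads, 8.66% against a 1.5-fold change, 19.7% without CEBPB replicate 2 and 16.0% without control 1. Those that fell were 21.3% with DESeq2, 24.1% with the replicate block, 30.7% with recovered reads, 8.67% against a 1.5-fold change, 20.0% and 21.4% without CEBPB replicate 1 or 2 and 16.7% and 17.1% without control 1 or 2. Since these are bulk libraries, fewer cells that express a gene and less of its RNA per cell cannot be told apart.

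**Figure D1:**
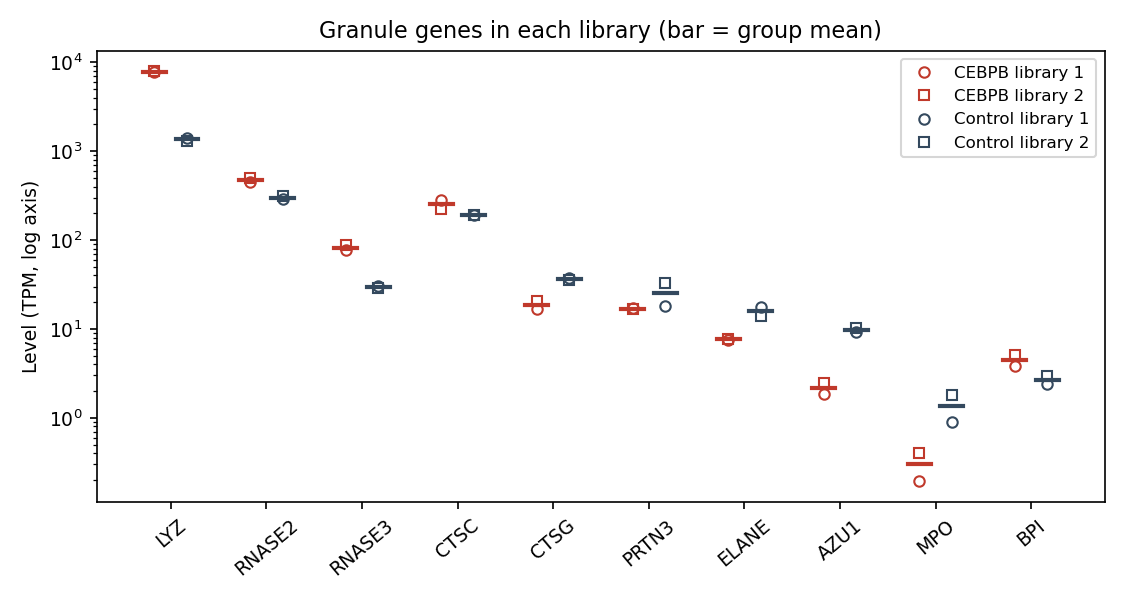
Level of each granule gene in TPM on a log axis, in the 2 CEBPB libraries (left, red) and the 2 control libraries (right, dark). Circles are replicate 1, squares replicate 2 and bars group means. LYZ stands alone at the top in all 4 libraries, and in PRTN3 control 1 lies close to the CEBPB libraries.

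LYZ encodes lysozyme, which cuts the peptidoglycan of bacterial walls. The gene (ENSG00000090382.7, protein-coding, chromosome 12, 69348341 to 69354234, plus strand, GRCh38) was at 7686 and 7921 TPM in the CEBPB libraries, against 1413 and 1308 TPM in the controls. Both CEBPB libraries were far above both controls, and the replicates of each group lay close together. The group means were 7804 ± 166 TPM in the CEBPB libraries and 1360.2 ± 74.2 TPM in the controls (SD, n = 2 each). This was a 5.07-fold rise in the fit, or 2.34 on the log2 scale (SE 0.08, edgeR adjusted p = 9.94e-05). In the list of all identifiers ordered by TPM, LYZ was number 6 and number 7 in the CEBPB libraries and number 112 and number 117 in the controls. Of the 31-base windows of its GENCODE v29 transcripts 14.3% also occurred in v29 transcripts of other genes, PIGR most often.

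LYZ made up most of the summed level of the granule genes. The 10 summed to 8541 and 8787 TPM in the CEBPB libraries, against 2005 and 1939.5 TPM in the controls, or 0.854% and 0.879% of all TPM against 0.2005% and 0.194%. LYZ held 90.0% and 90.1% of that sum in the CEBPB libraries and 70.5% and 67.4% of it in the controls. Without LYZ the other 9 summed to 854 and 866 TPM in the CEBPB libraries, against 592 and 632 TPM in the controls. RNASE2 and RNASE3 supplied most of that remainder, with 528 and 587 TPM in the CEBPB libraries, against 316 and 341 TPM in the controls. The 4 genes of the serine protease family (ELANE, PRTN3, CTSG and AZU1) summed to 43.3 and 47.4 TPM in the CEBPB libraries, against 81.9 and 92.9 TPM in the controls. Their share of the granule gene sum was 0.507% and 0.539% in the CEBPB libraries and 4.08% and 4.79% in the controls.

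**Figure D2:**
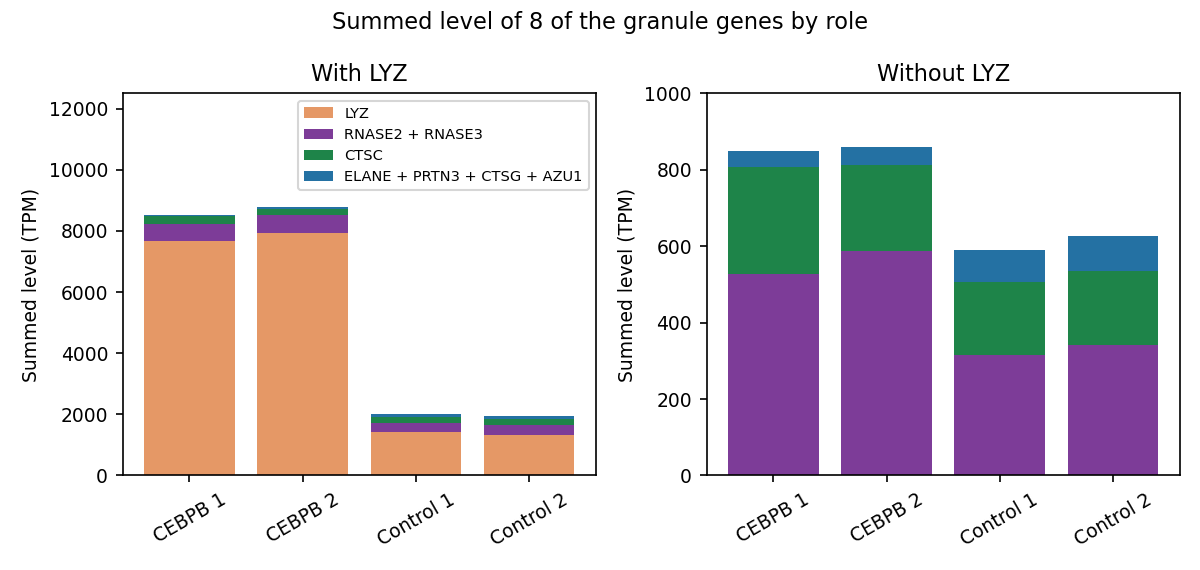
Summed level in TPM of the granule genes by role in each library, with LYZ (left panel) and without it (right panel). MPO and BPI are left out because their bars would be too thin to see. The LYZ part is the largest in every library, and without it the RNASE2 and RNASE3 part is.

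RNASE2 and RNASE3 are neighbours on chromosome 14 that encode eosinophil-derived neurotoxin and eosinophil cationic protein, secreted ribonucleases with antiviral or antibacterial activity. RNASE2 (ENSG00000169385.3, 20955452 to 20956436, plus strand) was at 450.4 and 499.8 TPM in the CEBPB libraries, against 286 and 312 TPM in the controls. RNASE3 (ENSG00000169397.4, 20891399 to 20892348, plus strand) was at 77.4 and 87.3 TPM in the CEBPB libraries, against 30.04 and 29.15 TPM in the controls. In both genes the CEBPB libraries lay above the controls without overlap.

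The fitted fold was larger for the less abundant gene. RNASE3 rose 2.46-fold (log2 1.30, SE 0.11, adjusted p = 6.25e-04, edgeR) and RNASE2 rose 1.41-fold (log2 0.49, SE 0.10, adjusted p = 0.0106, edgeR). The ratio of RNASE2 to RNASE3 in TPM was 5.82 and 5.72 in the CEBPB libraries, against 9.52 and 10.7 in the controls. With 2 libraries against 2, a two-sided exact permutation test of this ratio cannot give a p below 0.333. The call on RNASE2 was lost when control 1 was left out (0.43, edgeR adjusted p = 0.0682) and when a 1.5-fold change took the place of 0 in the test (edgeR adjusted p = 1.00).

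Part of the RNASE2 and RNASE3 signal cannot be assigned to 1 of them with certainty. Their GENCODE v29 transcripts matched in 645 of 717 aligned bases, or 90.0%. Of the 31-base windows of RNASE2 and RNASE3, 15.2% and 15.5% also occurred in transcripts of another gene, and 89 windows were common to both. The promoters are shown because these 2 genes moved together and much of their upstream sequence aligns closely. Over 249 aligned bases they were identical in 243, or 97.6%. Bases without a partner in the alignment are left out of this share. Among them is a stretch before the RNASE2 start that the RNASE3 window lacks. Each window covers 250 bases before and 50 after the start in RefSeq (GRCh38.p14, plus strand), chr14:20955237-20955536 and chr14:20891135-20891434, and capitals mark a match to TTGCNNAA, a form of the C/EBP motif, on either strand.
RNASE2: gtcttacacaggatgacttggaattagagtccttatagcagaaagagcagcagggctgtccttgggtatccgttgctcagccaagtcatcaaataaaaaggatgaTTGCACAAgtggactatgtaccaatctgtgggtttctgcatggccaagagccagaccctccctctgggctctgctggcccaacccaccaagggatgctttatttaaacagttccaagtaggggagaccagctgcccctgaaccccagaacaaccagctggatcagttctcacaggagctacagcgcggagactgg
RNASE3: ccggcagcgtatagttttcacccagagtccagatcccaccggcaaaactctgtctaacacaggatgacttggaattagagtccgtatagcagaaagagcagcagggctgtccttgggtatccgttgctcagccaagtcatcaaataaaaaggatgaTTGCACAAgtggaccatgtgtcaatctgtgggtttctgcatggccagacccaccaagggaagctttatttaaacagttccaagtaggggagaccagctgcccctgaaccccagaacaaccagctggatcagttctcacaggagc

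The match was TTGCACAA in both, with its first base 145 bases before the RNASE2 start and 94 before the RNASE3 start. Both starts are those of the RefSeq table. As the windows share most of their sequence, they are not independent examples.

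Eosinophil markers were low, and none passed as a rise. Of 9 listed genes 2 had enough counts to test. PRG2, the major basic protein of eosinophil granules, fell to 0.876 and 1.72 TPM in the CEBPB libraries, against 8.45 and 8.83 TPM in the controls (log2 -2.94, adjusted p = 0.00167, edgeR). CCR3 was at 0.774 and 0.297 TPM in the CEBPB libraries, against 0.471 and 0.946 TPM in the controls, and did not pass. EPX, eosinophil peroxidase, was at 0.116 TPM or less in every library, and CLC was listed at 0 in all 4. The summed level of the list was 1.82 and 2.13 TPM in the CEBPB libraries, against 9.56 and 10.3 TPM in the controls.

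In the wider RNase A family, 4 of the 6 tested genes rose and 2 fell, where 23.7% of all tested identifiers rose and 24.7% fell. RNASE2 and RNASE3 are among the 4. RNASE4 rose to 1.64 and 2.31 TPM in the CEBPB libraries, against 0.285 and 0.264 TPM in the controls (log2 2.57), and ANG, angiogenin, rose (1.82). These 2 genes overlap on the chromosome, so their reads are hard to separate, and both rest on few reads. RNASE4 reached the test only through the CEBPB libraries. RNASE6, a ribonuclease of monocytes and neutrophils, fell to 3.21 and 2.47 TPM in the CEBPB libraries, against 14.8 and 13.9 TPM in the controls (-2.52). RNH1, the intracellular inhibitor of these ribonucleases, fell (-0.88). RNASE1, RNASE7 and RNASE8 were listed at 0. Tested against a 1.5-fold change, 2 genes of the family rose.

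Of the 4 genes of the serine protease family 3 fell, by different amounts, and PRTN3 did not pass. ELANE, PRTN3 and AZU1 lie side by side within 31.2 kb of chromosome 19 (825097 to 856247, all on the plus strand), and CTSG lies on chromosome 14. They encode neutrophil elastase, proteinase 3, azurocidin and cathepsin G. Azurocidin has lost the catalytic residues and acts as an antimicrobial and chemotactic protein.

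AZU1 (ENSG00000172232.10) was at 1.85 and 2.47 TPM in the CEBPB libraries, against 9.14 and 10.3 TPM in the controls. It fell 5.08-fold (log2 -2.35, SE 0.21, adjusted p = 8.89e-04, edgeR), and held its call in each alternative. Of its 31-base windows in GENCODE v29 transcripts 8.53% occurred in other genes. Its deposited effective lengths, at least 2080 bases, exceed its longest v29 transcript, of 1713 bases. ELANE (ENSG00000197561.7) was at 7.56 and 7.73 TPM in the CEBPB libraries, against 17.7 and 14.1 TPM in the controls. It fell 2.36-fold (log2 -1.24, SE 0.15, adjusted p = 0.00223, edgeR). Neither gene overlapped between groups.

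CTSG (ENSG00000100448.4, chromosome 14, 24573522 to 24576260, minus strand) was at 16.6 and 20.6 TPM in the CEBPB libraries, against 37.1 and 35.6 TPM in the controls. It fell 2.21-fold (log2 -1.15, SE 0.14, adjusted p = 0.00208, edgeR), close to the fall of ELANE. The ratio of CTSG to ELANE was 2.196 and 2.667 in the CEBPB libraries, against 2.09 and 2.53 in the controls, so its values overlapped between groups.

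PRTN3 (ENSG00000196415.10) depended on 1 control. It was at 17.3 and 16.6 TPM in the CEBPB libraries, against 17.9 and 32.9 TPM in the controls. Control 1 was close to the CEBPB libraries, and control 2 stood well above the other 3 libraries. On the log2 scale the difference was -0.77 with an SE of 0.28, which did not pass (edgeR adjusted p = 0.0728). It was -1.14 without control 1 (adjusted p = 0.00218, edgeR) and -0.26 without control 2 (adjusted p = 0.180, edgeR). It also passed with DESeq2 (adjusted p = 0.0207), with recovered reads (0.0304, edgeR) and with a replicate block (0.0356, edgeR). The ratio of PRTN3 to ELANE was 2.29 and 2.14 in the CEBPB libraries, against 1.01 in control 1 and 2.34 in control 2. Of its 31-base windows in GENCODE v29 transcripts none occurred in another gene, which also held for ELANE and CTSG. The deposited effective lengths of PRTN3 and ELANE, at least 1123 and 1043 bases, exceed their longest v29 transcripts, of 1036 and 1028 bases. The reads may therefore have been assigned against other transcripts than these.

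The ratio of AZU1 to ELANE was 0.245 and 0.319 in the CEBPB libraries, against 0.515 and 0.734 in the controls. AZU1 therefore took a smaller part of the cluster's RNA in both CEBPB libraries than in either control. The promoters of the neighbouring genes AZU1 and PRTN3 are shown because AZU1 fell in every alternative, while PRTN3 passed as a fall only in some. A part of the promoters in this was not tested. The windows are chr19:827587-827886 and chr19:840749-841048 (RefSeq, GRCh38.p14, plus strand), and capitals mark matches to TTGCNNAA and to GAGGAAG, a form of the PU.1 motif.
AZU1: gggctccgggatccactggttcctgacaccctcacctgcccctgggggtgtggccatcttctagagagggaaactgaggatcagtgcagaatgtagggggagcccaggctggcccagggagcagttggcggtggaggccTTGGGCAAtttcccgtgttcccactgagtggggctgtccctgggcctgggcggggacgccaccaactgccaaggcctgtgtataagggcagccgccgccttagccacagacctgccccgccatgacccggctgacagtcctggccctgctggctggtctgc
PRTN3: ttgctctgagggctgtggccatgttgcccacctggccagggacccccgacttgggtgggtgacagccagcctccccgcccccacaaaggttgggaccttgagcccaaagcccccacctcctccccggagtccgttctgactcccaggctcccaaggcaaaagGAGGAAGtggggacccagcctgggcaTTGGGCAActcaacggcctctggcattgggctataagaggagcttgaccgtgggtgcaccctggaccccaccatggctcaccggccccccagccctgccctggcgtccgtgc

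Both promoters held TTGGGCAA, a match to the C/EBP form on the minus strand, with its first base 111 bases before the AZU1 start and 62 before the PRTN3 start. PRTN3 also held GAGGAAG at 88 bases before the start. Of the 10 granule genes 6 had a promoter in the RefSeq table, namely PRTN3, AZU1, CTSG, RNASE2, RNASE3 and CTSC. TTGCNNAA occurred in 4 of the 6, and in 10.5% of 34796 RefSeq promoters of 300 bases. The 4 are RNASE2 and RNASE3, with the same letters, and AZU1 and PRTN3, with the same letters. They are related pairs and not 4 independent examples. RNASE2 and RNASE3 rose, AZU1 fell and PRTN3 did not pass. GAGGAAG occurred in 2 of the 6 (PRTN3 and, at 2 places, CTSG) and in 13.6% of all. TGTGGT, a form of the RUNX motif, occurred in 0 of the 6 and in 13.1% of all. These are matches of letters on either strand within this window and do not show binding.

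**Figure D3:**
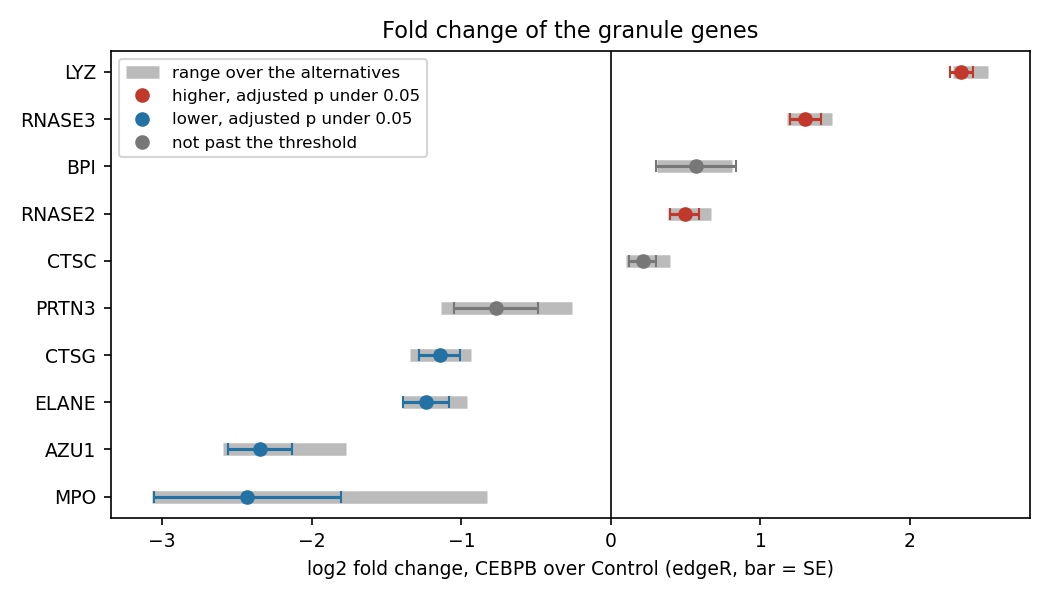
Log2 fold change of each granule gene, CEBPB over Control, from edgeR, with bars for 1 SE. Grey bands give the range over the alternatives, red marks genes that rose, blue genes that fell and grey points genes that did not pass. No band crosses 0, and the bands of MPO and PRTN3 are the widest.

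The genes around the chromosome 19 cluster also differed. Among the 3 nearest tested protein-coding genes on each side, PLPPR3, next to AZU1, fell to 3.68 and 4.97 TPM in the CEBPB libraries, against 17.7 and 18.1 TPM in the controls (log2 -2.23). CFD, which encodes the protease complement factor D and follows ELANE, fell to 19.3 and 18.2 TPM in the CEBPB libraries, against 44.6 and 36.4 TPM in the controls (-1.29). PRSS57, the granule protease NSP4, fell to 6.07 and 5.35 TPM in the CEBPB libraries, against 14.4 and 12.9 TPM in the controls (-1.44). PTBP1 and R3HDM4 fell by little (both -0.25, against a shift of 0.18 that the scaling by library totals gives to all identifiers), and MED16 rose (0.61). Of the 6 neighbours 5 fell and 1 rose, where 24.7% of all tested identifiers fell and 23.7% rose. With 6 genes, nothing particular to the region is read from this count.

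Around RNASE2 and RNASE3 the neighbours split as well. RNASE4, ANG and RNASE6 lie before the pair and are described above. On the other side METTL17 fell (-0.45), NDRG2 fell (-1.27) to 11.2 and 12.5 TPM in the CEBPB libraries, against 23.9 and 26.7 TPM in the controls, and ARHGEF40 did not pass (0.13, adjusted p = 0.635, edgeR).

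**Figure D4:**
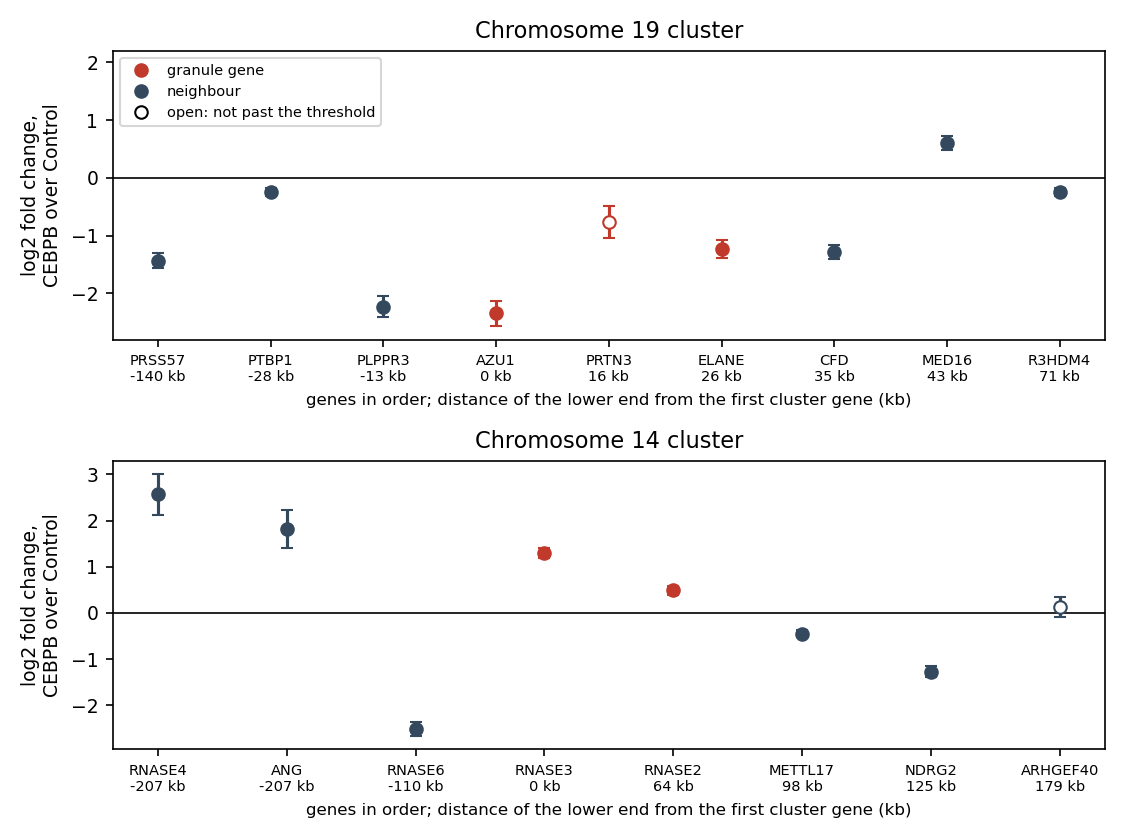
Log2 fold change (CEBPB over Control, edgeR, bars 1 SE) of the clustered granule genes (red) and of the 3 nearest tested protein-coding genes on each side (dark), in chromosome order, with the distance from the first cluster gene in kb. Open points did not pass the threshold. On chromosome 19 most points lie below 0, with MED16 above it. On chromosome 14 both granule genes lie above 0 and points on either side of them below it.

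MPO and BPI were scarce in all 4 libraries. MPO encodes myeloperoxidase, which makes hypochlorous acid and is a defining marker of granulocyte precursors. The gene (ENSG00000005381.9, chromosome 17, 58269856 to 58280935, minus strand) was at 0.194 and 0.407 TPM in the CEBPB libraries, against 0.902 and 1.79 TPM in the controls. Its values rest on 10 and 21 recovered reads in the CEBPB libraries, against 58 and 106 in the controls. MPO reached the test only through the controls, with deposited counts of 17.9 and 38.6 there, against 4.27 and 7.38 in the CEBPB libraries. It fell (log2 -2.43, SE 0.63, adjusted p = 0.0247, edgeR), but the call is fragile. It was lost without CEBPB replicate 1 (-1.93, adjusted p = 0.121, edgeR), without control 1 (-2.83, adjusted p = 0.0504, edgeR), without control 2 (-1.84, adjusted p = 0.233, edgeR) and when a 1.5-fold change took the place of 0 (edgeR adjusted p = 0.0685). Without CEBPB replicate 2 it was -3.07 (adjusted p = 0.0496, edgeR).

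BPI encodes the bactericidal/permeability-increasing protein, which binds the lipopolysaccharide of Gram-negative bacteria. The gene (ENSG00000101425.14, chromosome 20, 38304123 to 38337505, plus strand) was at 3.82 and 5.13 TPM in the CEBPB libraries, against 2.38 and 2.94 TPM in the controls. The groups did not overlap, yet the difference of 0.57 on the log2 scale, with an SE of 0.27, did not pass (edgeR adjusted p = 0.136). It passed on log2 TPM with 1 added (adjusted p = 0.0460, limma) or 0.1 added (0.0494, limma).

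CTSC (ENSG00000109861.17, chromosome 11, 88293592 to 88337787, minus strand) encodes cathepsin C, also called dipeptidyl peptidase I. It was at 279 and 226 TPM in the CEBPB libraries, against 191 and 193 TPM in the controls. The groups did not overlap, and the CEBPB libraries differed from each other by more than the lower of them did from the controls. A log2 difference of 0.21, with an SE of 0.09, did not pass (edgeR adjusted p = 0.104). It passed when libraries were scaled by their totals (0.40, adjusted p = 0.0299, edgeR), on log2 TPM with 1 or 0.1 added (0.38 and 0.39, adjusted p = 0.0250 and 0.0275, limma), with recovered reads (0.21, adjusted p = 0.0269, edgeR) and without CEBPB replicate 2 (0.33, adjusted p = 0.0165, edgeR). Scaling by library totals moved the median of all identifiers by 0.18 on the log2 scale, and with it 4424 rose and 2360 fell, against 3251 and 3390 in the trimmed-mean scaling used here.

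The order of the 10 levels was nearly the same in the groups. In the CEBPB libraries it ran LYZ, RNASE2, CTSC, RNASE3, CTSG, PRTN3, ELANE, BPI, AZU1 and MPO, and neighbours in that order did not overlap except CTSG and PRTN3. In the controls it ran LYZ, RNASE2, CTSC, CTSG, RNASE3, PRTN3, ELANE, AZU1, BPI and MPO, and the only neighbours that overlapped were RNASE3 and PRTN3. RNASE3 thus stood above CTSG in the CEBPB libraries and below it in the controls, and BPI stood above AZU1 in the CEBPB libraries and below it in the controls.

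Other cargo of azurophil granules moved both ways. Of 18 listed genes 13 were tested, of which 4 rose, 2 fell and 7 did not pass. Their median log2 fold change was -0.0044, and 23.7% of all tested identifiers rose and 24.7% fell. CD63, a membrane protein of the granule that guides elastase to it, rose to 409.9 and 404 TPM in the CEBPB libraries, against 209.7 and 211 TPM in the controls (0.77). STOM, stomatin, rose (1.73), and PRSS57 and the lysosomal mannosidase MAN2B1 fell (-1.44 and -0.98). The defensin genes DEFA1, DEFA1B and DEFA3 were listed at 0 in all 4 libraries. They are near-identical copies whose reads cannot be told apart. DEFA4 was at 0.777 TPM or less.

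Genes that sort, fold and mature the proteases moved both ways. Of 17 tested genes 6 rose, 4 fell and 7 did not pass, where 23.7% of all tested identifiers rose and 24.7% fell. The median was -0.064. SRGN, the serglycin core on which the proteases are stored, was at 4996 and 5719 TPM in the CEBPB libraries, against 5141 and 5168 TPM in the controls, and did not pass (-0.12, adjusted p = 0.361, edgeR). AP3S1, a subunit of the adaptor that sorts cargo to lysosome-related organelles, rose (0.84), as did SRP54 of the signal recognition particle (0.60) and the chaperone gene CANX (0.54). CTSL, cathepsin L, fell (-0.62). The lowest value was that of SLC37A4, the glucose-6-phosphate transporter, at 0.261 and 0.177 TPM in the CEBPB libraries, against 1.62 and 0.621 TPM in the controls (-2.46, adjusted p = 0.0337, edgeR), on few reads. SLC37A4 reached the test only through the controls. Against a 1.5-fold change 1 of these genes rose and 0 fell, and on log2 TPM with 1 added 2 fell.

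Inhibitors of the proteases moved both ways. Of 13 tested genes 6 rose, 4 fell and 3 did not pass, with a median of 0.0065. PI3 and SERPINB9 could reach the test only through the CEBPB libraries, and SERPINA1 and SPINK2 only through the controls. The tally is therefore no measure of the list. SLPI, which blocks elastase and cathepsin G, rose to 142 and 118 TPM in the CEBPB libraries, against 9.74 and 8.76 TPM in the controls (3.63). PI3, elafin, an inhibitor of elastase and proteinase 3, was at 60.4 and 57.3 TPM in the CEBPB libraries and listed at 0 in both controls. Against a floor of 3 reads over the control group, PI3 was at least 318.5-fold higher. CSTA, an inhibitor of cysteine cathepsins, rose (1.60), and CST3, cystatin C, fell (-1.09). SERPINA1, the plasma inhibitor of elastase, fell to 0.311 and 0.330 TPM in the CEBPB libraries, against 2.32 and 1.94 TPM in the controls (-2.87), and SPINK2 fell (-2.81) on few reads. Without control 2, 2 inhibitors fell.

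Most of the listed regulators of granule genes were lower. Of 19 tested genes 13 fell, 4 rose and 2 did not pass, where 24.7% of all tested identifiers fell and 23.7% rose. The median was -1.09, beside 0.00092 over all identifiers. CEBPA, which drives granulocyte commitment, fell to 11.5 and 12.1 TPM in the CEBPB libraries, against 93.1 and 89.7 TPM in the controls (-3.14). Of the other factors named above, CEBPE (-1.97), RUNX1 (-1.28), MYB (-1.20) and SPI1, which encodes PU.1 (-1.16), fell. IRF8, a monocyte factor, fell (-2.24), and KLF5 rose to 82.2 and 91.3 TPM in the CEBPB libraries, against 4.77 and 4.31 TPM in the controls (4.08). GFI1 rose to 107 and 96.4 TPM in the CEBPB libraries, against 48.5 and 50.6 TPM in the controls (0.86), and CUX1 rose (0.49). The list includes CEBPB, the labelled gene (6.38), and the receptor gene CSF3R, which fell (-1.13).

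Most close relatives of the granule genes were not expressed at a level that could be tested. Of 21 listed peroxidases, serine proteases, lysozymes and BPI-fold genes 17 had too few counts to test, at 0.173 TPM or less. PRSS57 and CFD fell, as given above, and so did PLTP, a phospholipid transfer protein related to BPI, which was at 11.4 and 11.2 TPM in the CEBPB libraries, against 16.3 and 20.1 TPM in the controls (-0.87). LYG1 did not pass (0.30, adjusted p = 0.467, edgeR).

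Specific and gelatinase granule genes are made after the azurophil stage. Of 18 listed genes 11 were tested, of which 9 rose, 1 fell and 1 did not pass. Among those that rose, LTF, LCN2, MMP8, HP and ARG1 had only 0, 1, 4, 7 and 12 recovered reads over the control libraries. TCN1 and CHI3L1, which also rose, had 14 and 35. In each of these genes at least 1 control was too low for the filter. They could reach the test only through a high level in the CEBPB libraries, so the tally is no measure of the list. ARG1, arginase, was at 852 and 721 TPM in the CEBPB libraries, against 0.529 and 0.420 TPM in the controls (10.47). MMP8, neutrophil collagenase, rose to 16.3 and 13.7 TPM in the CEBPB libraries, against 0.1003 and 0.0939 TPM in the controls, (7.02). ORM1 fell (-1.41). The other 7 listed genes, with CAMP and MMP9 among them, were at 0.413 TPM or less.

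**Figure D5:**
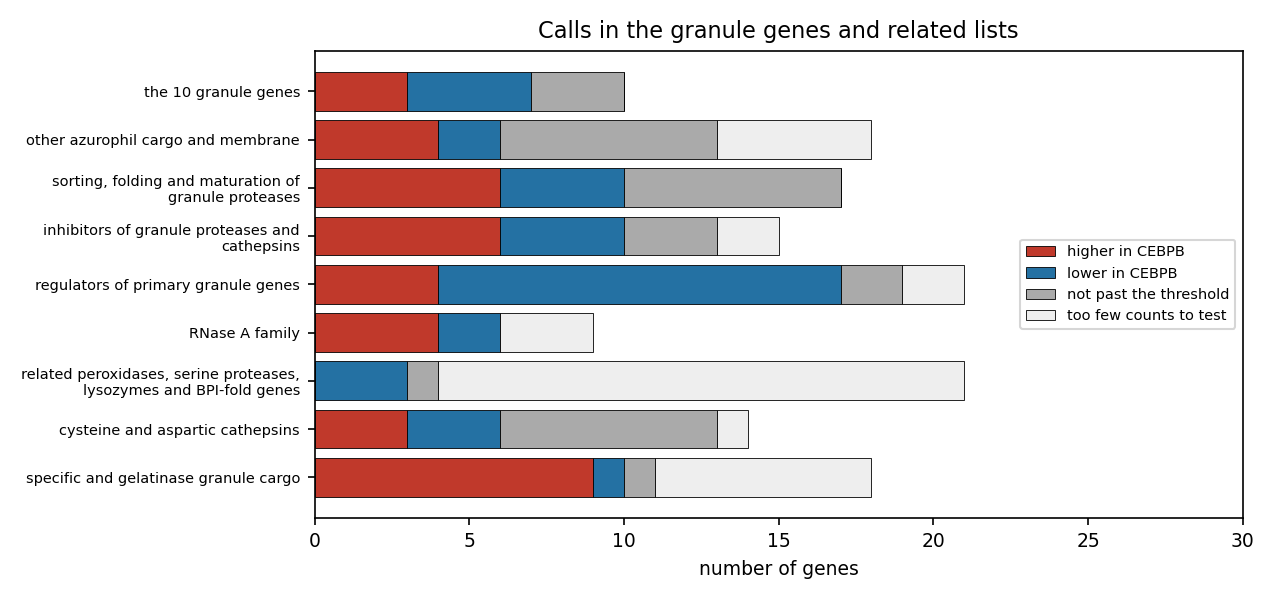
Number of genes that rose, fell, did not pass the threshold or had too few counts to test, for the 10 granule genes and the related lists. Of the 19 tested regulators 13 fell, where 24.7% of all tested identifiers fell. Of the related peroxidases, serine proteases, lysozymes and BPI-fold genes 17 of 21 listed had too few counts.

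Monocytes also make much lysozyme, and their markers moved both ways. Of 7 tested 2 rose, 4 fell and 1 did not pass, where 23.7% of all tested identifiers rose and 24.7% fell. The median was -1.26. CD14, the lipopolysaccharide co-receptor, rose to 5.36 and 4.63 TPM in the CEBPB libraries, against 1.06 and 0.996 TPM in the controls (2.08), while CD68 (-1.26), the Fc receptor gene FCGR1A (-2.38) and VCAN (-1.80) fell. The 15 listed markers summed to 234 and 276 TPM in the CEBPB libraries, against 478 and 467 TPM in the controls, with CD68 the largest part, and C1QA, C1QB and C1QC were listed at 0. Without control 1 or control 2, 1 marker rose.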

How the data were processed

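RNA-seq values of 4 libraries were used. Per the submitters' processing notes, Trimmomatic 0.39 and kallisto 0.46.2 were run on the GRCh38 build. The annotation release, strand setting and gene summary step are not given in the sources used here. The tables deposited by the authors give, for each gene, TPM, an expected count and, in bases, an effective length, which is none of the usual expression units (other). Each deposited count equals TPM times 1 constant per library, so it carries no transcript length. As an alternative, TPM was multiplied by effective length and brought to the total of its library, to recover reads. The share of these that came within 0.01 of a whole number was 58.7% to 60.8% per library, among those of 0.2 to 500.

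Symbols matched 35690 of 41084 identifiers. Counts were rounded, filtered with filterByExpr (13698 identifiers tested) and scaled by TMM, the trimmed mean of M values. The test was the quasi-likelihood F test of edgeR 4.0.16 under R 4.3.3, over all 4 libraries, with Benjamini-Hochberg adjustment. The common biological coefficient of variation was 11.3%. DESeq2 1.42.0, limma 3.58.1 (voom, and log2 TPM), other scalings and filters, a replicate block, a 1.5-fold test and leaving out each library were alternatives. Counts were simulated over 13698 identifiers, with 80 changed 1.5-fold, 80 changed 2-fold and 40 changed 4-fold. The fit called 42.9% of 77 tested genes changed 1.5-fold, 72.5% of 80 changed 2-fold and 89.7% of 39 changed 4-fold, with 5 false calls. In the data 48.5% of identifiers were called, far more than were changed in the simulation. These shares therefore do not give the power or the errors of the comparison itself. Coordinates are from GENCODE v29, promoters from RefSeq. Figures used matplotlib 3.10.9.

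The genes and lists were chosen with earlier results of these data known. In each list up to 4 genes with the smallest adjusted p are named, 1 of each direction where both passed, with all 10 granule genes, the 3 nearest profiles per gene and the 3 neighbours on each side. Genes named beyond that rule (SRGN, DEFA4, CCR3, LYG1, SLC37A4, SERPINA1, SERPINB9, SPINK2, GFI1, CSF3R, CTSA, the regulators of the background, marker genes at 0, and LTF, LCN2, HP, TCN1 and CHI3L1) were chosen after their values were seen. Effective lengths of the 10 genes served only as a description.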

Additional observations from a re-analysis of the deposited data

How the results depend on the processing

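No fold change of the 10 granule genes changed sign in the alternatives run. Of 169 recomputed values 152 kept their side of the threshold, 6 lost it and 11 gained it. LYZ, RNASE3, AZU1, ELANE and CTSG kept their calls in each alternative, with log2 fold changes of 2.29 to 2.52, 1.17 to 1.48, -2.59 to -1.77, -1.40 to -0.96 and -1.34 to -0.94.

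Tested against a 1.5-fold change, 1186 identifiers rose and 1188 fell (8.66% and 8.67% of those tested), and MPO (-2.43, adjusted p = 0.0685, edgeR) and RNASE2 (0.49) lost their calls. On log2 TPM with 1 or 0.1 added, 5 of the granule genes rose, as BPI (0.58 and 0.72) and CTSC (0.38 and 0.39) passed (limma). CTSC also passed with library totals (0.40) and recovered reads (0.21). PRTN3 passed with DESeq2 (-0.76), recovered reads (-0.81) and the replicate block (-0.70, adjusted p = 0.0356, edgeR). MPO had too few counts under the filter of 1 CPM in 2 libraries and has no value there.

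With 1 library left out, where the variance of a lone library is taken from the other group, MPO ranged from -3.07 to -1.84, PRTN3 from -1.14 to -0.26, RNASE2 from 0.38 to 0.61, BPI from 0.31 to 0.81 and CTSC from 0.10 to 0.33. Calls changed for MPO, PRTN3, RNASE2 and CTSC. The cause of these changes was not tested.

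The within-group differences of the 2 groups, replicate 1 minus replicate 2, correlated at -0.0043 over 13698 identifiers. With a single difference per group, this cannot tell whether libraries of equal number were prepared together, which the labels do not state. The replicate block changed no call among the granule genes other than that of PRTN3. Of 510 recomputed list counts 30 moved by over 1.5 times. MPO rests on few reads, which limits what its values can show, and 2 libraries a group limit every p-value.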

Other observations

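Among the listed cathepsins, CTSC included, 3 of 13 tested genes rose, 3 fell and 7 did not pass. Over all tested identifiers 23.7% rose and 24.7% fell. CTSA, which did not pass, encodes a serine protease, and the others are of cysteine or aspartic type. CTSB, a lysosomal cysteine protease, rose to 142 and 139.97 TPM in the CEBPB libraries, against 90.8 and 88.7 TPM in the controls (log2 0.47, adjusted p = 0.00291, edgeR). CTSH (-0.84), CTSL (-0.62) and CTSS (-0.55) fell. CTSC had the highest level of the list in every library. With recovered reads 5 cathepsin genes rose and 5 fell, on log2 TPM 5 rose, and without CEBPB replicate 1, 1 rose.

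Profiles were also compared by the root mean square difference of centred log2 CPM over the 4 libraries, as a description in which any gene with the same fold is close. Nearest to LYZ were HIF1A (0.0512), LPL (0.0605) and DNAJB2 (0.0747). Nearest to AZU1 were MS4A6A (0.0366), CACNB1 (0.0439) and TMC6 (0.0491), and nearest to RNASE3 were MLLT11 (0.0301), MAP3K8 (0.0368) and OFD1 (0.0427). Nearest to MPO were RPS6KL1, SLC2A5 and TMC6 (0.273 to 0.303), to ELANE STAG3L2, ADORA2A and RPP40 (0.0402 to 0.0492), and to CTSG APOC2, ADAM22 and MOK (0.0222 to 0.0379). Nearest to RNASE2 were CUX1, NUFIP2 and EIF5 (0.0160 to 0.0221), to BPI RPL36A-HNRNPH2, PLCD3 and HERC6 (0.0333 to 0.0646), and to CTSC ZNFX1, NOTCH2 and NUP98 (0.00257 to 0.0145). PRTN3, with its split between the controls, was nearest to ME3 (0.0401), ZNF707 (0.0724) and CD101 (0.0781). In ME3 control 2 stood apart as well, with 3.179 and 2.998 TPM in the CEBPB libraries, against 3.058 and 5.996 TPM in controls 1 and 2.

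The deposited effective lengths differed among the 4 libraries by 1.48% to 7.01% for 9 of the 10 genes. For MPO the longest exceeded the shortest by 19.6%, and the groups overlapped. Lengths were larger in both CEBPB libraries than in either control for CTSC (1297 bases on average, against 1253), RNASE2 (609.5 against 593), RNASE3 (663 against 644) and CTSG (849 against 833). These are 4 of the 10 genes, and the same held for 43.0% of all 13698 identifiers tested, so the count is near that of all genes.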
